A study of Rattus norvegicus with 34 samples.

Results

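Whole liver of untreated male F344 rats aged 24 months was compared with whole liver of untreated male F344 rats aged 6 months, 4 rats of each age. The 8 arrays were chosen by the strain and age in their labels, out of 34 arrays in the series. F344, the Fischer rat, is an inbred laboratory rat strain used widely in ageing research, and these rats were housed at Charles River, a commercial breeder, until shortly before necropsy. The series also holds F344 livers of 11 and 18 months, 4 of each, and livers of male Brown Norway rats, an inbred strain too, with 3 untreated rats at 4 months and 3 at 24 months among them. The remaining Brown Norway arrays were untreated rats of 12 months and rats given toluene by mouth. Each array held labelled RNA of 1 liver on an Affymetrix Rat 230 2.0 chip, so a value is a mean over every cell type of the organ. With such values, fewer cells of a type and less RNA per cell cannot be told apart.

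The labelled tissue was checked against 13 genes that define hepatocytes, among them albumin (Alb), apolipoprotein A1 (Apoa1) and the asialoglycoprotein receptor subunit Asgr1. Alb read 8381, 7888, 8411 and 7976 at 6 months and 8946, 8171, 7920 and 8314 at 24 months, in units of the deposited array signal, and the ages overlapped. None of the 13 genes passed the limma test described next, with 1 at an unadjusted p under 0.05, and their summed signal ran from 63338 to 65803 at 6 months and from 65107 to 66063 at 24 months. For 2 of the 13 the ages did not overlap, beside 15.4% of all tested genes. They were Asgr1 and Asgr2, both lower at 24 months, with log2 fold changes of -0.31 and -0.37.

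The sex of a rat is written into its liver by growth hormone. Adult males release the hormone in widely spaced pulses and females almost continuously, and the transcription factor STAT5b, switched on by each pulse, holds on a set of male-pattern genes while female-pattern genes stay low. HNF6 and CUX2 are further liver factors of this circuit, CUX2 being a repressor found mainly in female liver. Many of the genes concerned make steroid- and drug-metabolising enzymes, such as the P450 enzymes Cyp2c11 of males and Cyp2c12 of females.

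Promoters are shown first for the genes at both ends of the comparison, because members of these groups moved together over large folds. They are the 250 bases upstream of the annotated gene start in RefSeq's rat assembly GRCr8, read 5′ to 3′ on the gene's own strand. Sult1e1 (chr14:20701230-20701479, plus strand), Obp3 (chr5:79640676-79640925, minus strand) and Cyp2c11 (chr1:246174966-246175215, plus strand) had the largest falls with a promoter entry. Akr1b7 (chr4:64043720-64043969, plus strand), A1bg (chr7:94387497-94387746, minus strand) and Cyp2c12 (chr1:248677035-248677284, minus strand) had the largest rises. Hsd3b5, which fell most, has no entry in the table used here. Capitals mark matches, on either strand, to the letters TTCNNNGAA (a STAT5 site), ATCAAT (HNF6 and CUX2) with its variant ATCGAT, then TGTTTAC (FOXA), TTATGNAA (the D-box of the clock factors) and GTTAAT (part of an HNF1 site).
Sult1e1: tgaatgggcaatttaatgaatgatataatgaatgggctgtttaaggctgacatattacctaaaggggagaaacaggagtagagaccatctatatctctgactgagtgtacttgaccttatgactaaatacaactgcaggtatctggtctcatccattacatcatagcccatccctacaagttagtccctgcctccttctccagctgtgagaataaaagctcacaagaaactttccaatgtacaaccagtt
Obp3: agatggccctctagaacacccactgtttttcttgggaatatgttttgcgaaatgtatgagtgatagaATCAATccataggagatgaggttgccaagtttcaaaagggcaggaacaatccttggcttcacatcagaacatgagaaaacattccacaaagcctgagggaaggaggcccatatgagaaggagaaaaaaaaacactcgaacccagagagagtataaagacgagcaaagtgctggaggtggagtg
Cyp2c11: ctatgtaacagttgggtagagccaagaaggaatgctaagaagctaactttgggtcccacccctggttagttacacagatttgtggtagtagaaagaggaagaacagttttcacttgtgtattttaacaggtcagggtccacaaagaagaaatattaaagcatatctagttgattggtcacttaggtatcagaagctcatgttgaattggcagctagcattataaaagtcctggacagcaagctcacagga
Akr1b7: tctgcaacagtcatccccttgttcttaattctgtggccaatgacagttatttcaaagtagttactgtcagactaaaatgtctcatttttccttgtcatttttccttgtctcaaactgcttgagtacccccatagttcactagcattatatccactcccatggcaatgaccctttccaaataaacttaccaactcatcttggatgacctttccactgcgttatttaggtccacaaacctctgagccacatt
A1bg: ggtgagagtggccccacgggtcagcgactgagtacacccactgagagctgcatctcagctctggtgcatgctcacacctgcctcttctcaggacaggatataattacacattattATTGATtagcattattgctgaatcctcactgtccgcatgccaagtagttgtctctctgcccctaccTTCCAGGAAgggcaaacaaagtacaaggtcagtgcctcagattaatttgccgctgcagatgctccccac
Cyp2c12: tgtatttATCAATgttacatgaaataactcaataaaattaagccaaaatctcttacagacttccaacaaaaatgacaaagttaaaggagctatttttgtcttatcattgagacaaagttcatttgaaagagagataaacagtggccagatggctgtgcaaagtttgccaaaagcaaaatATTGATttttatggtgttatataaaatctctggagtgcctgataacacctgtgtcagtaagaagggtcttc

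The A1bg promoter held 1 TTCNNNGAA match, written TTCCAGGAA, at bases -69 to -61 from the gene start, and 1 ATCAAT match on the other strand at -135 to -130. The Cyp2c12 promoter held an ATCAAT match at -243 to -238 and another, on the other strand, at -71 to -66. Obp3 had 1 ATCAAT match at -183 to -178, and none of the 6 letter patterns occurred in the windows of Sult1e1, Cyp2c11 and Akr1b7. No match says only that these letters are absent from this window. Over all 27457 genes with a promoter entry, 6.99% of the windows held ATCAAT, 7.52% TTCNNNGAA, 6.46% GTTAAT, 3.25% TGTTTAC, 0.779% ATCGAT and 3.21% TTATGNAA. The letters ATCAAT occurred in 5 of the 14 windows of tested female-pattern genes. For the 14 tested male-pattern genes 11 windows were found, of which 3 held ATCAAT. TTCNNNGAA occurred in 1 window of each set. TGTTTAC occurred in 1 female-pattern and 3 male-pattern windows, GTTAAT in 2 and 1, ATCGAT in 1 and 0, and TTATGNAA in 0 of each. Among the 323 windows of genes that rose with age 4.64% held ATCAAT and among the 237 of genes that fell 5.06% did, beside 3.41% of the 7752 windows of all tested genes. These shares are descriptions and were not tested.

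Across the genome, 681 of 9206 tested genes differed between 24 and 6 months, which is 7.4% of those tested. The test was limma's moderated test on log2 signals, with signals under 32 set to 32, 1 probe set per gene and a Benjamini-Hochberg adjusted p under 0.05 over all tested genes. At 24 months 408 genes were higher (4.43%) and 273 lower (2.97%). Counts in the gene lists below stand beside these shares, and no list was tested as a set. The median fold was 1.76 among those that rose and 1.65 among those that fell. By 4-fold or more, 22 genes fell and 18 rose, and by 2-fold or more 70 fell and 136 rose. The groups of 4 livers did not overlap at all for 1415 genes (15.4%), among them 389 of the genes that rose and 252 of those that fell. The median log2 fold change of all tested genes was -0.01. Folds are ratios of geometric means, from the fitted log2 values, and are written as "at least" where livers of the lower group lay under the signal of 32. Of the 408 rises, 15 were of genes that met the filter, a signal above 32 on at least 4 of the 16 F344 arrays, only with their 24-month livers. Such a gene had to differ; those named are A1bg, Cux2, Sult2a2, Edil3, Cldn7 and Cd8a, and their values, with any p beside them, are descriptions.

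**Figure D1:**
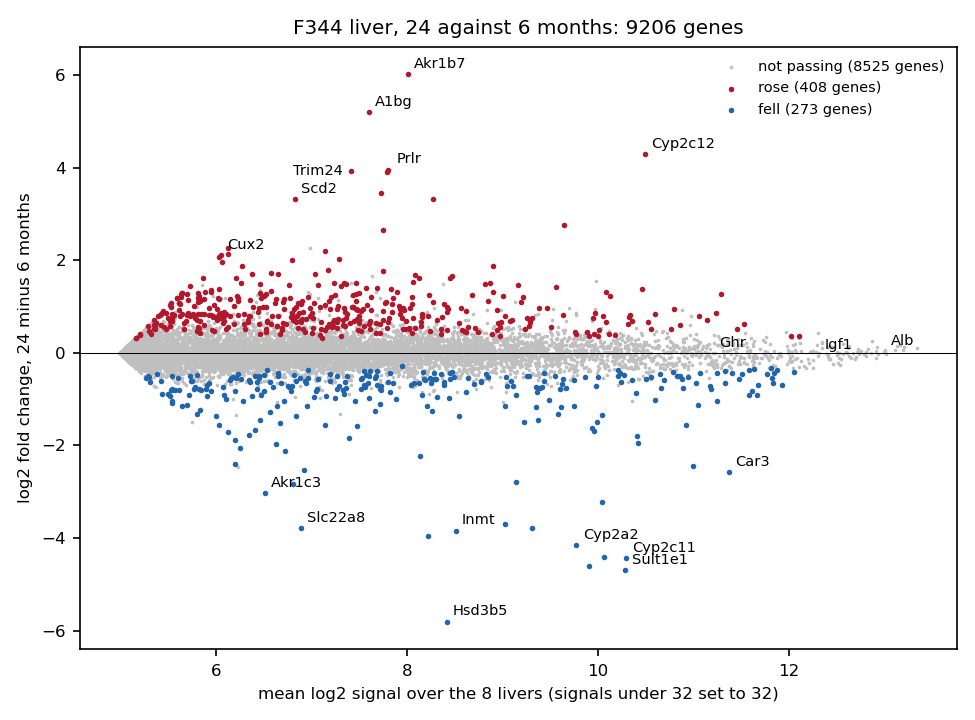
Log2 fold change (24 minus 6 months, vertical axis) against the mean log2 signal of the 8 livers (horizontal axis), 1 point per gene. Red points are the 408 genes that rose, blue points the 273 that fell and grey points those that did not pass; Hsd3b5 lies lowest at -5.81 and Akr1b7 highest at 6.02, while Alb, Igf1 and Ghr lie near 0.

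The number of genes called leaned on single livers. Leaving out each of the 8 livers in turn gave between 389 genes, without 24-month replicate 1, and 640, and 445 without 6-month replicate 3. Of the 681 genes, 332 passed in all 8 of these refits; genes named below did so too unless a smaller number is given. As a measure of RNA integrity, the signal of the 3′ Gapdh probe set over that of its 5′ counterpart, higher where RNA is degraded or copied short, was 4.35, 1.66, 2.96 and 1.93 in the livers of 6 months and 1.74, 1.38, 1.94 and 2.17 in those of 24 months. Without the 5 F344 arrays whose Gapdh ratio exceeded 2.5, of which 2 were of 6 months and 0 of 24 months, 426 genes passed. All 681 kept their direction and 351 of them passed again. The same ratio for actin ran from 6.199 to 13.43 at 6 months and from 5.601 to 10.57 at 24 months, and the ages overlapped. The array with 10.57, 24-month replicate 4, was not among the 5 left out. Leaving them out therefore does not remove every array with a high actin ratio. Of the genes that passed in all 8 refits and are named below, Cyp2c13, Sult1c2, Scd2, Rgn, Slc25a13 and Tyrobp did not pass without those 5 arrays, at adjusted p of 0.0707, 0.055, 0.0672, 0.0614, 0.101 and 0.0571. For 28 named genes that passed, 31 further probe sets were tested; 30 had the same direction and 14 passed. Nothing in the labels says more about the replicates than that they were separate rats. The p-values and standard errors rest on limma's moderated variance, pooled over the 4 F344 age groups, and not on the 8 compared livers alone. For Cyp2c12 the log2 standard deviations were 0.38 at 6 months and 0.17 at 24 months, beside a standard error of 0.56 for the difference. Livers of the ages in between enter that error.

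Of the male-pattern genes, most fell. Of 14 tested members 12 fell and 0 rose, the median log2 fold change was -3.13, and the count of 12 was the same in every refit that left out 1 liver and was 11 without the 5 high-ratio arrays. The list was drawn up with earlier results of these arrays known, and its direction is therefore no independent evidence. The summed signal of the 14 genes ran from 57595 to 66557 at 6 months and from 14551 to 24934 at 24 months.

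Hsd3b5, a 3-ketosteroid reductase of the 3-beta-hydroxysteroid dehydrogenase family found in male liver, read 2870, 2861, 2087 and 2519 in the young livers and 50.6, 37.9, 71.2 and 13.7 in the old. The fall was at least 56.1-fold (log2 fold change -5.81 with a standard error of 0.29; adjusted p = 5.82e-09), and the lowest young liver stood far above the highest old one. Sult1e1, the sulfotransferase that inactivates oestrogens, went from 6501, 5988, 6257 and 6712 to 472, 173, 342 and 132, a 25.8-fold fall (-4.69 ± 0.30; adjusted p = 6.25e-08). Its promoter window, shown above, held none of the 6 letter patterns.

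Obp3, which encodes a urinary lipocalin that carries small hydrophobic ligands, fell 24.3-fold from 5296, 4149, 5280 and 4298 to 277, 242, 231 and 92.8 (-4.60 ± 0.30; adjusted p = 9.14e-08). Its relative Mup5 fell 3.45-fold, from between 1991 and 3180 to between 493 and 1315; another Mup5 probe set, at -0.47, did not pass (adjusted p = 0.218). Obp3 and Mup5 belong to a family of near-identical copies, and how far probes of one read another was not tested.

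The male P450 enzymes fell by very different amounts. Cyp2c11, a testosterone hydroxylase and the commonest P450 of the young male liver, read 5978, 5597, 6219 and 5624 at 6 months and 548, 208, 387 and 120 at 24 months, a 21.7-fold fall (-4.44 ± 0.32; adjusted p = 1.85e-07). Cyp3a2, a hydroxylase of steroids and many drugs, fell 21.4-fold from between 4095 and 5707 to 219, 210, 542 and 117 (-4.42 ± 0.30; adjusted p = 1.07e-07). Cyp2a2 fell 17.7-fold, and here the old livers were far apart at 328, 62, 776 and 120 after young values of 3851, 3791, 3588 and 3569 (-4.15 ± 0.51; adjusted p = 0.000124). Without 24-month replicate 3, the least reduced liver, its log2 fold change was -4.78. Cyp2c13 fell 5.47-fold, from between 4592 and 5195 to 1485, 387, 2842 and 361, and Cyp3a18 fell 2.94-fold, to between 817 and 1774. Cyp2c members are close copies of each other, so part of any one reading may come from another member, which was not tested.

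The other falling members were Stac3, Car3 and Dhrs7. Car3, the carbonic anhydrase of muscle and male liver, went from 7327, 6577, 5168 and 7021 to 910, 1127, 1758 and 779, a 5.94-fold fall (-2.57 ± 0.23; adjusted p = 4.5e-06). Stac3, best known as a partner of the muscle calcium channel, fell 12.9-fold although its young values spread from 946 to 3660; the old ones averaged 172 ± 120 (SD, n = 4), the lowest at 67.9 (-3.69 ± 0.56; adjusted p = 0.000649). Dhrs7, a short-chain dehydrogenase, fell 1.49-fold. The exceptions were Cyp2c22, with a log2 fold change of 0.10 (adjusted p = 0.812), and Rup2, at -0.12 (adjusted p = 0.471), each at a signal above 4000 in all 8 livers. The probe sets of Rup2 disagreed: another was at -1.34 and passed (adjusted p = 0.0107), and a further pair, at -0.18 and -0.26, did not.

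Genes outside that list fell by large folds too. Ust5r, a transporter of the organic anion family, fell 15.6-fold from 1136, 1192, 1132 and 1275 to 74.8, 92.9, 105 and 45.7 (-3.96 ± 0.23; adjusted p = 2.74e-08). Inmt, which methylates indole amines, fell 14.3-fold to 116, 168, 108 and 41.6 from between 1031 and 1950 (-3.84 ± 0.40; adjusted p = 2.03e-05). Dhrs7l1, a dehydrogenase related to Dhrs7, fell 13.7-fold and Hao2, a peroxisomal hydroxyacid oxidase, 9.39-fold, with old livers at 352, 552, 208 and 349 for Hao2. Slc22a8, the organic anion transporter OAT3, fell at least 13.7-fold; its young values were 638, 632, 148 and 622 and every old value lay under 32. A further Slc22a8 probe set was at -1.85 and did not pass (adjusted p = 0.0639).

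Among female-pattern genes most rose. Of 14 tested members 9 rose, 1 fell and 4 did not pass, with a median log2 fold change of 2.09; leaving out 1 liver gave 7 to 9 rises, and leaving out the 5 high-ratio arrays gave 8. Their summed signal ran from 10163 to 13879 at 6 months and from 23724 to 32970 at 24 months. Of the 9, A1bg, Cux2 and Sult2a2 met the filter only with their 24-month livers and 6 did not need them. This list, too, was drawn up with earlier results known.

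Akr1b7, an aldo-keto reductase that clears lipid aldehydes, was under 32 in every young liver and read 1623, 2540, 1465 and 3104 in the old, a rise of at least 65-fold (6.02 ± 0.36; adjusted p = 3.03e-08). A1bg, a secreted immunoglobulin-like plasma protein, was likewise under 32 at 6 months and rose to 737, 2341, 333 and 3370, at least 36.9-fold (5.20 ± 0.50; adjusted p = 7.48e-06). Its old livers spanned a 10-fold range, and without 24-month replicate 3 the log2 fold change was 5.81. Cyp2c12, the female counterpart of Cyp2c11, rose 19.7-fold from 367, 336, 221 and 405 to 5712, 6662, 5935 and 7441 (4.30 ± 0.56; adjusted p = 0.000206). No old liver was below 5712 and no young one above 405.

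Among regulators on the female list, Cux2 was under 32 in all young livers and read 146, 136, 115 and 160 at 24 months, at least 4.32-fold higher (2.11 ± 0.14; adjusted p = 1.07e-07). Trim24, a nuclear receptor cofactor, rose 15.2-fold from between 39.3 and 51.1 to 737, 627, 546 and 785 (3.93 ± 0.26; adjusted p = 9.52e-08). Prlr, the prolactin receptor, rose 15.5-fold from 42.9, 55.4, 104 and 42.1 to 806, 817, 761 and 1210 (3.96 ± 0.44; adjusted p = 3.86e-05). For Prlr, 24-month replicate 4 stood above the other 3.

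Sulfotransferases of the 2A family, which sulfate bile acids and hydroxysteroids, rose as well. Sult2a6 went from 139, 327, 336 and 578 to 1639, 2150, 2411 and 2248, a 6.81-fold rise (2.77 ± 0.50; adjusted p = 0.00292). Sult2a2 was under 32 in every young liver and read 48.1, 235, 103 and 282 in the old, at least 4.21-fold higher. It was under 32 in every liver of 11 and 18 months too, so that it was tested only because of the 24-month livers, and in only 4 of the 8 refits. Cyp2a1 rose 1.81-fold but passed in 3 of 8 refits. Fmo1, a flavin monooxygenase placed on the female list, fell 2.23-fold and passed in 1 of 8, only without 24-month replicate 3. Cyp2c7 (0.12), Cyp3a9 (-0.04) and the fatty acid transporter Cd36 (1.24; adjusted p = 0.252) did not pass, nor did the growth hormone receptor Ghr.

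**Figure D2:**
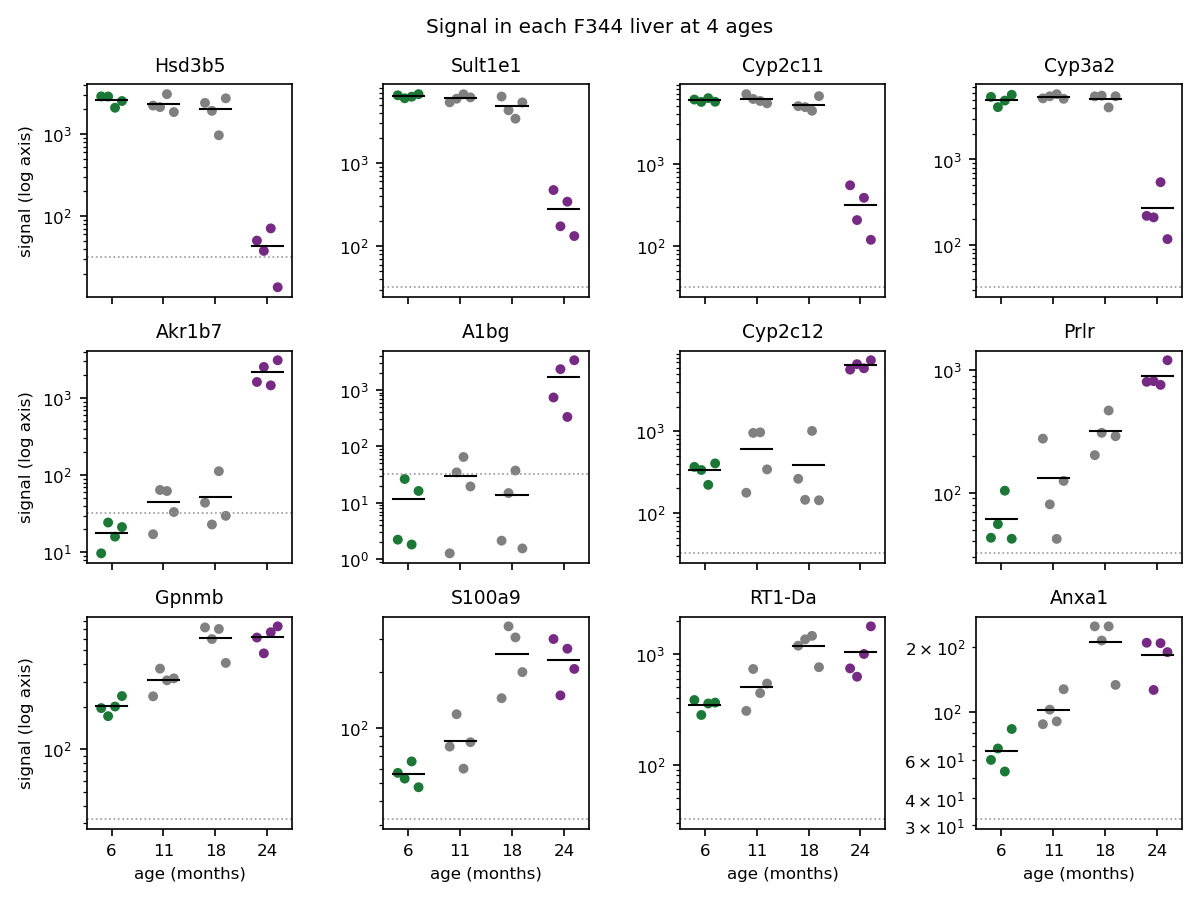
Signal (log axis) of 12 genes in each F344 liver at 6, 11, 18 and 24 months, 1 point per rat, with a bar at the arithmetic mean of each group of 4 and a dotted line at the signal of 32. In the top row and for Akr1b7, A1bg and Cyp2c12, the 24-month livers stand apart from the other ages, while Gpnmb, S100a9, RT1-Da and Anxa1 are already high at 18 months.

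Of 19 tested genes of growth hormone and insulin-like growth factor signalling, 1 rose, Prlr, and 0 fell; the median log2 fold change was -0.03. Ghr read 2362, 2760, 2201 and 2229 at 6 months and 2286, 2467, 2152 and 2573 at 24 months. Igf1, the growth factor the liver makes under growth hormone, read 5379, 5348, 4988 and 5030 and then 5268, 5250, 4192 and 5219. Both overlapped between the ages, at -0.01 ± 0.12 (adjusted p = 0.985) and -0.06 ± 0.11 (adjusted p = 0.811). Stat5b, at -0.49 ± 0.19, did not pass (adjusted p = 0.135), and every value lay under 64, close to the lower limit of the arrays. Among 33 liver transcription factors Cux2 rose and Tbx3 fell, the latter at least 2.06-fold with a pass in 1 of 8 refits, the one without 6-month replicate 4. Hnf4a, a factor that keeps hepatocyte identity, was at -0.08 ± 0.14.

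Large rises outside the female list came from genes of mixed function. Serpinb9b, a serine protease inhibitor, rose at least 15-fold, from 23.7, 74.4, 68 and 66.8 to 880, 1418, 483 and 898 (3.90 ± 0.38; adjusted p = 8.32e-06). Rtn4, the membrane-shaping protein Nogo of the endoplasmic reticulum, rose 9.97-fold to 916, 1008, 1008 and 998 (3.32 ± 0.38; adjusted p = 5.55e-05). Edil3, a secreted integrin ligand, was under 32 in the young livers and read 89.8, 198, 221 and 141 in the old, at least 4.8-fold higher. Tmem30b, a flippase subunit, rose 4.58-fold, and Cyp26a1, which breaks down retinoic acid, at least 4.42-fold, to 136, 200, 137 and 125.

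Of 22 tested genes of fatty acid synthesis and elongation 3 rose and 1 fell, with a median of 0.12. Elovl6, which elongates 16-carbon fatty acids, rose 11-fold from 38.5, 64, 134 and 51.3 to 576, 2469, 198 and 866 (3.45 ± 0.64; adjusted p = 0.00352). Scd2, a stearoyl-CoA desaturase, rose at least 10-fold to 107, 1429, 121 and 896 from values under 45 (3.32 ± 0.64; adjusted p = 0.0043). Pnpla3, a lipid droplet acylhydrolase, rose 6.28-fold to 400, 2258, 97.4 and 968, but its ages overlapped and it passed in 1 of 8 refits, the one without 24-month replicate 3. All 3 were highest in 24-month replicate 2 and next highest in replicate 4. Without replicate 2 the log2 fold changes were 2.85, 2.66 and 1.96; without replicate 3, Elovl6 was at 4.06 and Pnpla3 at 3.47. Without the 5 high-ratio arrays Elovl6 passed (adjusted p = 0.0378), and Scd2 did not (0.0672), so the list's count of rises went from 3 to 1. Lpin2, a phosphatidate phosphatase, was the gene that fell, 1.53-fold, and passed in 1 of 8 refits, the one without 6-month replicate 2.

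Oxidation of fatty acids showed 1 rise and 2 falls among 28 tested genes, with a median of -0.11. Bdh1, the mitochondrial enzyme that makes the ketone body 3-hydroxybutyrate, fell 2.2-fold from 734, 807, 852 and 726 to 337, 315, 396 and 371 (-1.14 ± 0.14; adjusted p = 0.000112). Cyp4a8, a fatty acid omega-hydroxylase, rose 3.2-fold from between 77.3 and 208 to between 406 and 691 (1.68 ± 0.32; adjusted p = 0.0039). Cpt1a, which admits fatty acids to the mitochondrion, fell 2.56-fold, but 24-month replicate 4 read 1234 and 6-month replicate 4 read 853, and the call held only in the 2 refits without one of them. Of 28 genes of lipid uptake, droplets and export, 2 rose: Lpl (lipoprotein lipase), 2.28-fold, and Mttp, which loads lipid onto lipoproteins, 1.43-fold, each in 3 of 8 refits. The small counts of this list and of the oxidation list lie near the shares of all tested genes, 4.43% higher and 2.97% lower.

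Cholesterol synthesis leaned upward, with 17 of 20 tested genes higher, a median of 0.42, 4 rises and 1 fall. Sqle, squalene epoxidase, rose 2.48-fold from 129, 161, 188 and 134 to 421, 385, 309 and 394 (1.31 ± 0.23; adjusted p = 0.00219). Insig2, which holds the pathway's activator in the endoplasmic reticulum, fell 1.82-fold from between 1510 and 2289 to between 869 and 1235 (-0.86 ± 0.17; adjusted p = 0.00517). Mvd (at least 1.75-fold, 4 of 8 refits), Pmvk (1.45-fold, 3 of 8) and Fdps (1.51-fold, 2 of 8), enzymes on the way to farnesyl diphosphate, were weaker. The count of 4 rises was 2 without 24-month replicate 1 or 4, and 1 without 24-month replicate 2, 6-month replicate 3 or 6-month replicate 4.

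Bile acid synthesis and transport leaned downward, with 16 of 18 tested genes lower, a median of -0.39, 5 falls and 0 rises. Amacr, which prepares bile acid side chains for shortening, fell 1.86-fold from 3417, 4083, 4248 and 5165 to 1976, 2371, 1966 and 2758 (-0.90 ± 0.16; adjusted p = 0.00219). Slco1b2, an uptake carrier for bile acids, fell 1.63-fold and Slco1a1, another, 1.45-fold. Baat, which conjugates bile acids to taurine or glycine, fell 1.33-fold in 7 of 8 refits, the call being lost without 24-month replicate 1. Slco1a4 fell 1.56-fold and passed in 1 of 8. Without 24-month replicate 1 the count of falls was 3.

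Xenobiotic and steroid metabolism showed more falls than rises. Among 37 P450 genes 12 fell and 4 rose, among 12 sulfotransferases 4 fell and 2 rose, and among 19 steroid dehydrogenases and reductases 8 fell and 0 rose; these lists share many of the male-pattern genes above. Without the 5 high-ratio arrays the falls were 9, 2 and 5. Akr1c3, a 3-alpha-hydroxysteroid dehydrogenase, fell at least 8.18-fold from 235, 367, 258 and 212 to values under 32 (-3.03 ± 0.23; adjusted p = 4.36e-07). Hsd11b1, which regenerates active glucocorticoid, fell 2.05-fold from between 3372 and 3616 to 1743, 1598, 2540 and 1203 (-1.03 ± 0.16; adjusted p = 0.00105). Rdh16, a retinol dehydrogenase, fell at least 3.91-fold. The steroid count of 8 was 5 without 24-month replicate 1, 24-month replicate 2, 6-month replicate 2 or 6-month replicate 4, and 4 without 6-month replicate 3. Sult1c3 fell 1.77-fold and Sult1c2 2.2-fold, both phenol sulfotransferases. Among 6 UDP-glucuronosyltransferases and genes of their substrate, Ugp2 fell 1.7-fold and Ugt2b10 rose 1.41-fold, the latter not without 24-month replicate 4.

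Of 18 tested drug and organic ion transporters 5 fell and 0 rose, with a median of -0.25. Besides Slc22a8, Slco1a1, Slco1b2 and Slco1a4 above, Slc22a25 fell at least 1.46-fold, with a pass in 2 of 8 refits. The count of 5 was 3 without 24-month replicate 1, 2 or 4 and without 6-month replicate 1 or 2. Glutathione and antioxidant genes were mixed, at 4 rises and 3 falls of 38 and a median of 0.00. Gstp1, a glutathione transferase that is low in normal rat hepatocytes, rose 2.61-fold from 134, 137, 135 and 163 to 364, 290, 600 and 294 (1.38 ± 0.29; adjusted p = 0.007). Hmox1, haem oxygenase, rose 2.1-fold, and Gstm7 fell 1.81-fold. The rises were 2 without 6-month replicate 1, and the falls were 1 without that liver and 5 without 24-month replicate 3.

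Amino acid breakdown had 33 of 38 tested genes lower, a median of -0.24, 6 falls and 0 rises. Kynu, kynureninase of tryptophan breakdown, fell 1.68-fold from 2281, 2392, 2684 and 2533 to 1449, 1673, 1226 and 1563 (-0.75 ± 0.13; adjusted p = 0.0023), and it alone of the 4 members with the smallest p passed in all 8 refits. Gpt (1.73-fold, 4 of 8), Haao (1.44-fold, 3 of 8) and Gstz1 (1.34-fold, 2 of 8) were weaker. The count of 6 was 1 without 24-month replicate 1, 24-month replicate 4 or 6-month replicate 1, and 2 without 6-month replicate 2 or 3 or without the 5 high-ratio arrays. Of 12 urea cycle and glutamine genes 11 were lower and 1 fell, the aspartate carrier Slc25a13 (1.42-fold); a further probe set of that gene was at 0.05 and did not pass.

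Glycolysis and glucose output had 3 falls and 0 rises among 28. Pygl, liver glycogen phosphorylase, fell 1.44-fold from between 1668 and 1915 to between 1182 and 1369 (-0.53 ± 0.09; adjusted p = 0.00254). Pck1, the rate-limiting enzyme of gluconeogenesis, fell 1.62-fold in 7 of 8 refits, not without 6-month replicate 3, and Slc37a4, which carries glucose 6-phosphate into the endoplasmic reticulum, fell 1.65-fold in 5 of 8. Without 6-month replicate 3 the count of 3 was 1. Among 20 genes of the methionine cycle and methyltransferases 3 fell: Inmt above, Gnmt (1.48-fold) and As3mt (1.52-fold), the latter pair in 2 of 8 refits each. That count was 1 without 24-month replicate 1 or 4 or 6-month replicate 2 or 4. Of 50 respiratory chain genes 0 passed in limma and 2 had an unadjusted p under 0.05; 35 were lower, with a median of -0.07.

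Hepatocytes near the central vein and near the portal tract make different enzymes, and genes of both zones were listed. Of 16 tested pericentral genes 7 fell and 0 rose, with a median of -0.61, including Car3 and Slco1b2 above, Rgn, a calcium-binding lactonase (1.35-fold), and Lect2, a secreted chemotactic protein (2.71-fold, 4 of 8 refits). Glul, the classic glutamine synthetase of the innermost hepatocytes, read 858, 654, 995 and 1020 and then 478, 450, 948 and 655 and did not pass (-0.52 ± 0.20; adjusted p = 0.143). The 7 became 3 without 24-month replicate 1 or 4 or without the 5 high-ratio arrays, and 4 without 24-month replicate 2 or 6-month replicate 3. Of 20 periportal genes 17 were lower, at a median of -0.13, and 2 fell and 1 rose. The rise was Cdh1, the epithelial adhesion protein E-cadherin, 2.29-fold from 308, 346, 432 and 527 to 860, 822, 962 and 985 (1.20 ± 0.22; adjusted p = 0.00268). The falls were Pck1 and Ftcd, a histidine-breakdown enzyme (1.36-fold, 2 of 8 refits).

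**Figure D3:**
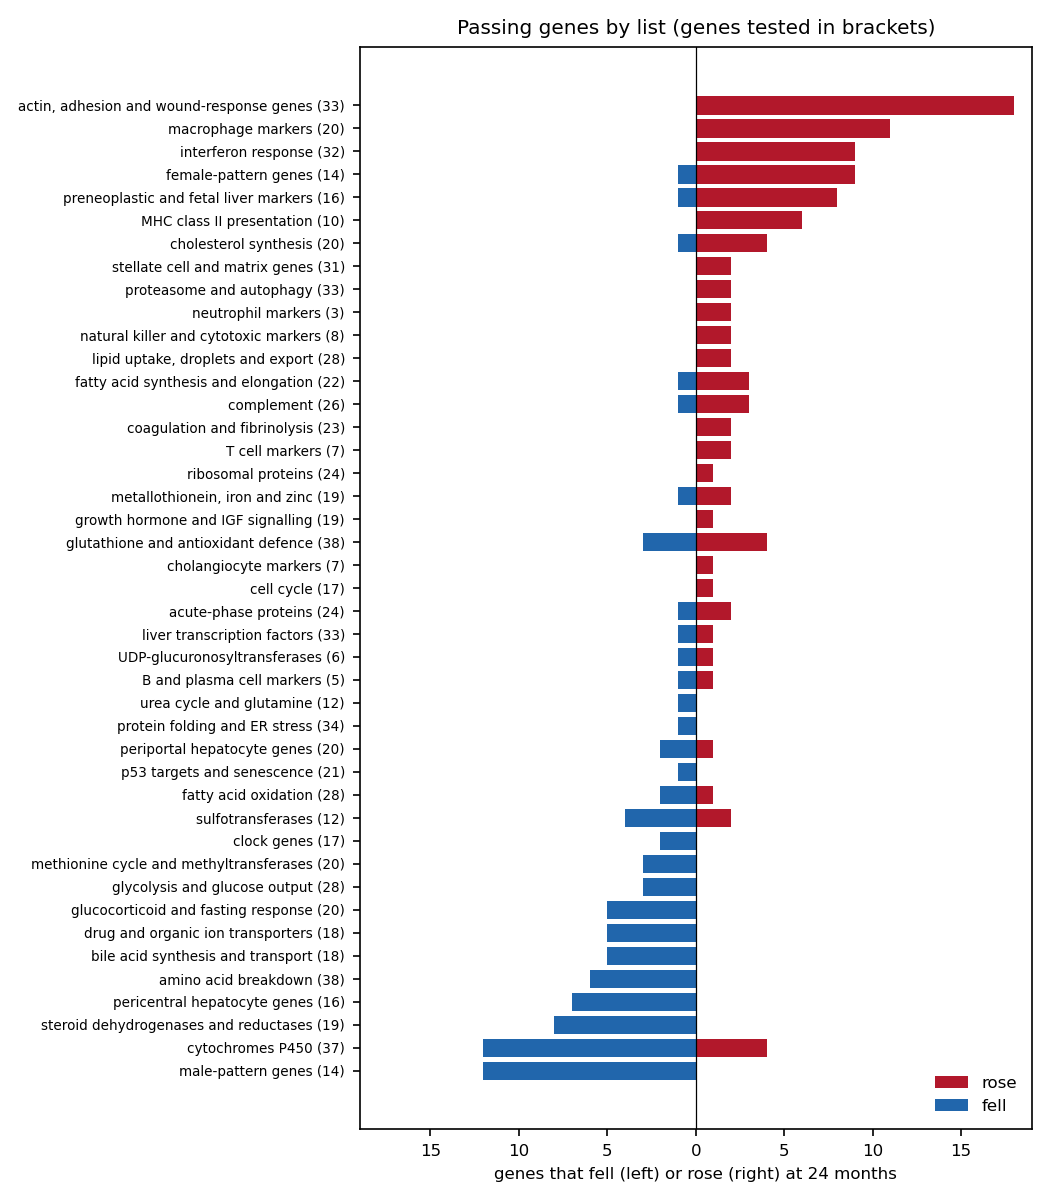
Number of tested genes that rose (red, right) or fell (blue, left) at 24 months in the 43 of 47 gene lists that held at least 1 such gene, with the number of tested genes in brackets. Male-pattern genes and P450 enzymes each show 12 falls, and actin, adhesion and wound-response genes show 18 rises and 0 falls; some genes stand in several lists.

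Among plasma protein genes, Lbp, which carries bacterial lipopolysaccharide, rose 2.67-fold from 374, 419, 498 and 594 to 1345, 983, 1821 and 982 (1.42 ± 0.29; adjusted p = 0.0067), and Stat3, the transcription factor of the acute-phase response, rose 2.19-fold to between 595 and 805. They were the 2 rises among 24 acute-phase genes; the fall, Il6r, the interleukin-6 receptor, passed in 0 of 8 refits, and without 6-month replicate 4 the rises were 4. Of 26 complement genes 3 rose and 1 fell. C6, a subunit of the membrane attack complex, rose 2.42-fold from 1662, 1965, 1743 and 1187 to 3737, 5148, 2617 and 4598 (1.27 ± 0.23; adjusted p = 0.0026). C4bpb, part of a complement inhibitor, rose 1.65-fold, not without 24-month replicate 1, and its partner C4bpa 1.29-fold, in 0 of 8 refits; Mbl2, a mannose-binding lectin, fell 1.35-fold in 5 of 8. Without 24-month replicate 1, or without the 5 high-ratio arrays, 1 complement gene rose. Among 23 coagulation genes, Tfpi (1.54-fold, 2 of 8) and Thbd (1.61-fold, 4 of 8), both inhibitors of clotting, rose and 0 fell. So small a count lies near the 4.43% of all tested genes that rose.

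Among 19 metal-handling genes, the iron exporter Slc40a1 (ferroportin) rose 1.69-fold from 459, 491, 439 and 573 to 790, 702, 820 and 1017 (0.76 ± 0.14; adjusted p = 0.00394). Tfrc, the transferrin receptor, rose 1.74-fold and Mt1, a metallothionein, fell at least 3.24-fold, each in 3 of 8 refits. Mt1 is also on the list of glucocorticoid and fasting genes, of which 5 of 20 fell and 0 rose. Klf9, a glucocorticoid-induced transcription factor, fell 2.03-fold from 1134, 976, 1079 and 919 to 446, 440, 571 and 581 (-1.02 ± 0.22; adjusted p = 0.0105). That count was 2 without 24-month replicate 1 or 2 or the 5 high-ratio arrays, 3 without 24-month replicate 3 or 6-month replicate 1, and 1 without 6-month replicate 3.

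Of 17 clock genes, which drive daily rhythms, 2 fell. Nr1d1 and Nr1d2 encode the rhythmic repressors REV-ERB alpha and beta. Nr1d1 read 113, 143, 203 and 124 at 6 months and 22.8, 34.8, 24.8 and 60.2 at 24 months, at least 3.7-fold lower (-1.89 ± 0.27; adjusted p = 0.000428), and Nr1d2 fell 2.39-fold (-1.25 ± 0.24; adjusted p = 0.00415), although its 24-month replicate 4, at 248, overlapped the young livers. The hour of necropsy is not given in the sources used here. At 18 months the group means of 207 for Nr1d1 and 452 for Nr1d2 stood above those of 6 months (145 and 321), and at 11 months they were 70.4 and 189, so the order followed no single direction with age.

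Of 10 tested genes of MHC class II antigen presentation, 10 were higher and 6 rose, with a median of 1.02. RT1-Da, a class II alpha chain, rose 2.77-fold from 385, 282, 358 and 365 to 744, 626, 1005 and 1787 (1.47 ± 0.30; adjusted p = 0.00701). RT1-DMa, of the peptide exchange complex, rose at least 2.13-fold, RT1-DMb 1.79-fold, and Ctss, the protease that trims the invariant chain, 1.82-fold from between 659 and 910 to between 1130 and 1648. Leaving out 1 liver gave 4 to 7 rises. Rat class II genes are polymorphic, and how well the probes read the alleles of each strain was not tested.

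Macrophage markers were higher for 20 of 20 tested genes, with a median of 0.70 and 11 rises. Their summed signal ran from 6023 to 7480 at 6 months and from 8954 to 13294 at 24 months. Gpnmb, a glycoprotein of lipid-laden macrophages, rose 3.08-fold from 195, 171, 200 and 237 to 613, 474, 668 and 735 (1.62 ± 0.19; adjusted p = 7.55e-05). Fcer1g and Tyrobp, adaptor chains of Fc and activating receptors, rose 1.91-fold and 1.96-fold, and the low-affinity IgG receptor Fcgr3a 1.43-fold. Clec4f, the lectin of resident Kupffer cells, rose 1.58-fold but in 2 of 8 refits; it was chosen after its values were seen, as the defining marker of that cell. The count of 11 was 5 without 24-month replicate 1, 24-month replicate 4 or 6-month replicate 2, 6 without 6-month replicate 3, and 7 without 24-month replicate 3 or without the 5 high-ratio arrays.

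Interferon-responsive genes rose for 9 of 32 tested, and 0 fell, with a median of 0.42. Ifitm3, a membrane protein that blocks virus entry, rose 1.92-fold from 1193, 1162, 1581 and 1257 to 2432, 2697, 2262 and 2533 (0.94 ± 0.13; adjusted p = 0.000273). Ifit2 rose 1.85-fold, the transcription factor Irf1 1.96-fold and the GTPase Igtp 1.58-fold. With 1 liver left out 6 to 8 rose, and without the 5 high-ratio arrays 11 rose. Among 33 proteasome and autophagy genes, Psmb10, an immunoproteasome subunit that interferon induces, rose 1.72-fold, and Psme2, a proteasome activator subunit, 1.38-fold, in 0 of 8 refits.

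Neutrophil markers were higher for 3 of 3 tested genes, at low signals. S100a9, the calcium-binding protein of neutrophils and monocytes, read 57, 53.1, 65.7 and 47.7 at 6 months and 300, 149, 266 and 207 at 24 months, a 4.01-fold rise (2.00 ± 0.27; adjusted p = 0.000281); its partner S100a8 rose at least 1.87-fold in 6 of 8 refits, lost without 24-month replicate 1 or 4. With 3 neutrophil genes tested, their summed signal went from between 86.4 and 113 to between 277 and 468. Of 7 T cell markers 7 were higher and 2 rose: Lck, a T cell kinase (1.65-fold), and Cd8a (at least 1.73-fold, 4 of 8 refits, lost without any 1 of the young livers). Without 24-month replicate 4 the T cell rises were 4. Of 8 natural killer and cytotoxic markers 7 were higher and 2 rose. Gzmk, a granzyme, rose at least 2-fold, to 94.3, 81.1, 47.6 and 50.3, and Klrd1, a receptor chain, at least 1.52-fold; without 24-month replicate 3 the rises were 4. Of 5 B and plasma cell markers 1 rose, Sdc1, a proteoglycan that hepatocytes also make, and 1 fell, Xbp1, in 0 of 8 refits; without 24-month replicate 1 the rises were 3.

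The gene list with the most rises was that of actin, adhesion and wound-response genes. All 33 tested members were higher, 18 rose and 0 fell, and the median log2 fold change was 0.79; the count was 16 without the 5 high-ratio arrays. Tpm4, a tropomyosin of non-muscle actin filaments, rose 2.89-fold from 127, 183, 129 and 208 to 588, 403, 464 and 392 (1.53 ± 0.19; adjusted p = 0.000153). Anxa1, a phospholipid-binding annexin, rose 2.76-fold, from between 53.3 and 83.8 to 210, 127, 209 and 190. Lgals3, a galectin of macrophages and bile ducts, rose 2.48-fold, and Itgb2, the beta chain of leukocyte integrins, 2.39-fold. Several members are made by leukocytes, so this list moved beside the macrophage sum given above, whose part in the result was not tested.

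Of 31 stellate cell and matrix genes 2 rose: Vim, the filament protein vimentin, 2.28-fold, with means of 155 ± 30.9 and 353 ± 50.5 (SD, n = 4; 1.19 ± 0.17; adjusted p = 0.000523), and Dcn, the collagen-binding proteoglycan decorin, by 1.73 ± 0.42 on the log2 scale in 6 of 8 refits, not without 24-month replicate 1 or 6-month replicate 3. These 2 rises of 31 lie near the 4.43% of all tested genes that rose. The summed signal of the 31 genes overlapped, at 6837 to 8082 and 6960 to 8738. Of 17 endothelial genes 0 passed in limma and 3 had an unadjusted p under 0.05, and of 4 red blood cell genes 0 passed and 2 did. Of 7 cholangiocyte markers 5 were higher and 2 lower, and 1 passed. That was Cldn7, a claudin of bile duct epithelium, under 32 in every young liver. It read 78.5, 75.8, 105 and 61.9 in the old, at least 2.47-fold higher (1.30 ± 0.24; adjusted p = 0.00285). Cldn7 met the filter only with its 24-month livers, so these values are a description. Epcam, a defining marker of cholangiocytes, read 116, 103, 67.7 and 129 and then 180, 242, 161 and 216. Its groups did not overlap, but it did not pass (0.96 ± 0.32; adjusted p = 0.0855). Tff3, another listed marker, was lower (-0.15) and did not pass.

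Genes listed as preneoplastic or fetal liver markers in the rat changed in 9 of 16 tested genes, 8 up and 1 down, in every one of the 8 refits, with a median of 0.85. Without the 5 high-ratio arrays 6 rose and 1 fell. For 6 of the 16, livers of the lower group lay under 32. Akr1b7 and Gstp1 are on this list and were described above. Krt18, a keratin of hepatocytes and ducts, rose 1.8-fold from 1097, 1186, 1192 and 1150 to 2219, 1767, 2312 and 2043 (0.84 ± 0.13; adjusted p = 0.000716). Prom1, a membrane protein of progenitor cells, rose at least 1.81-fold to 56.2, 44.8, 75.4 and 68. The fall was Spink1, a trypsin inhibitor, 4.33-fold from 143, 209, 339 and 232 to 52.3, 60.3, 59.6 and 35.6 (-2.11 ± 0.26; adjusted p = 0.000131). The other Spink1 probe sets, at -1.15 and -1.01, did not pass (adjusted p = 0.102 and 0.123). The summed signal of the 16 went from between 3644 and 5253 to between 8033 and 9320.

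Of 17 cell cycle genes above the limit Ccnd2, a D-type cyclin, rose 1.73-fold in 1 of 8 refits, the one without 6-month replicate 1, and of 21 p53 and senescence genes Rgn fell. Protein folding genes had 1 fall of 34, Xbp1, whose refits are given above with the B and plasma cell markers. Counts this small lie near the shares of all tested genes, 4.43% higher and 2.97% lower. Ribosomal protein genes were higher for 23 of 24, at a median of 0.22, but 1 passed, Rpl12, 1.42-fold in 4 of 8 refits; 8 of the 24 had an unadjusted p under 0.05.

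The log2 standard deviation was larger at 24 than at 6 months for 223 of the 408 genes that rose. It was larger at 24 months for 140 of the 273 that fell. For 78 of these rises and 38 of these falls, livers of the lower group lay under the lower limit. Signals under the limit were set to it, which narrowed the spread at 6 months for such rises and at 24 months for such falls. Without a share for all tested genes, the counts do not show that old livers varied more. Single livers differed within the older group. Replicates 2 and 4 of 24 months had the highest A1bg, Scd2, Elovl6 and Pnpla3 and the lowest Cyp2a2, Cyp2c11 and Cyp2c13 of the 4 old livers. Replicate 3 had the most Cyp2a2 and Cyp2c13 left and the least A1bg. Replicate 1 stood out for Prf1, Ccl5 and Cd8a, genes of T cells and cytotoxic lymphocytes. Its Prf1, the pore-forming perforin, read 351 against 94.8, 35.2 and 73.3 in the others, its Ccl5, a T cell chemokine, 909 against 367, 176 and 190, and its Cd8a 108 against 50.5, 38.7 and 45.1. Neither Prf1 (1.47 ± 0.48; adjusted p = 0.0748) nor Ccl5 (1.32 ± 0.40; adjusted p = 0.056) passed between the ages, and without replicate 1 Prf1 was at 0.85. Other members of these marker lists set replicate 1 apart less or not at all. Gzma read 142, 123, 58.1 and 90.6 in replicates 1 to 4. Klrd1 and Il7r were highest in replicate 4, at 54.2 and 55.8. Gstp1 was highest in replicate 3. With 4 rats, these patterns are a description and no rats were grouped by them.

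**Figure D4:**
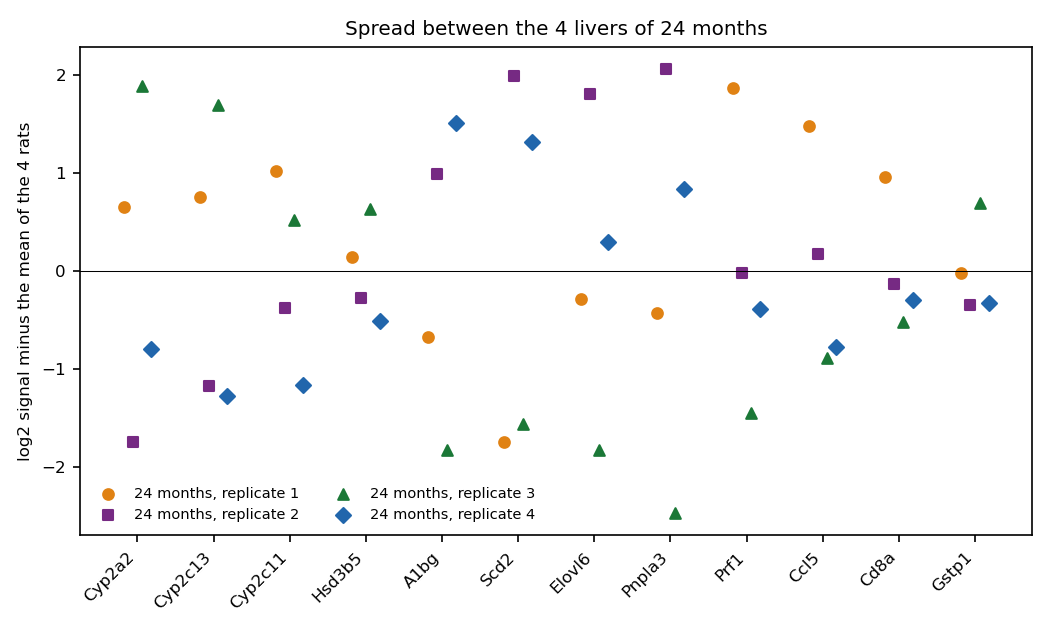
Log2 signal of 12 genes in each of the 4 livers of 24 months, minus the mean of the 4 (signals under 32 set to 32), 1 symbol per rat. Replicates 2 and 4 lie low for Cyp2a2, Cyp2c13 and Cyp2c11 and high for A1bg, Scd2, Elovl6 and Pnpla3, and replicate 1 lies high for Prf1, Ccl5 and Cd8a.

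The livers of 11 and 18 months show where the named genes stood between the ends. They share the 24-month arrays with the comparison above, so the figures are given side by side. Against 18 months, 162 genes passed at 24 months (1.76%). Hsd3b5 averaged 2584 at 6, 2311 at 11, 1998 at 18 and 43.3 at 24 months, and Sult1e1 6365, 6024, 4830 and 280. Akr1b7 averaged 17.8, 44.4, 52.6 and 2183, and Trim24 44, 60.1, 81.6 and 674. Each of these 4 genes passed from 18 to 24 months as well (adjusted p = 2.12e-08 for Hsd3b5, 1.83e-07 for Sult1e1, 1.4e-07 for Akr1b7 and 1.7e-06 for Trim24). Cyp2c12 was uneven before 24 months, with 1 liver of 18 months at 1013 and the others at 262, 145 and 143.

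For a further set the means of 18 months lay nearer those of 24 than of 6 months. Gpnmb averaged 201, 307, 607 and 623 and S100a9 55.9, 85.3, 250 and 230, with log2 differences of 0.05 and -0.08 from 18 to 24 months that did not pass (adjusted p = 0.96 and 0.955). RT1-Da averaged 347, 508, 1196 and 1040, and Anxa1 66.4, 103, 212 and 184. Prlr lay in between, at 61, 131, 318 and 899, and its step from 18 to 24 months did not pass (1.54; adjusted p = 0.0984). The step did not pass for Rtn4 either, at 105, 137, 453 and 982 (1.31; adjusted p = 0.104). It passed for Inmt, at 1432, 1177, 378 and 108 (-1.85; adjusted p = 0.0257).

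Brown Norway livers allowed the age difference to be compared between strains. The difference of differences, F344 from 6 to 24 months minus untreated Brown Norway from 4 to 24 months, passed for 51 of 9166 genes (0.556%), 30 in the positive and 21 in the negative direction. The count was 78 without Brown Norway 24-month replicate 3 and 84 without F344 24-month replicate 3. The youngest ages were not the same, and the Brown Norway groups had 3 rats each. The arrays differed between strains as well: the Gapdh ratio ran from 0.818 to 0.944 in the 6 Brown Norway livers and from 1.38 to 4.35 in the 8 F344 livers, the median signal from 36.5 to 37.8 and from 44.9 to 47.0, and the share of probe sets above 32 from 53.5% to 54.2% and from 59.5% to 60.4%. Strain and these measures cannot be told apart. Of the 14 tested male-pattern genes 9 had a more negative change in F344, and of 13 female-pattern genes with values in both strains 5 had a more positive one. Among those 5, A1bg, Cux2 and Sult2a2 met the filter only with the F344 livers of 24 months. Their strain differences, with any p and refits beside them, are therefore descriptions. Hsd3b5 was at -0.54 in Brown Norway, Sult1e1 at -0.07, Cyp2c11 at -0.79 and Cyp3a2 at -0.53, so their differences were -5.27 ± 0.40, -4.62 ± 0.36, -3.65 ± 0.43 and -3.89 ± 0.47 (adjusted p = 1.17e-09, 1.17e-09, 4.22e-06 and 6.54e-06). Cyp2c12 (0.41 in Brown Norway), Trim24 (1.13) and Cux2 (0.33) differed too, at 3.89 ± 0.72, 2.80 ± 0.55 and 1.78 ± 0.23. A1bg, whose Brown Norway livers averaged 14.1 at 4 and 12.6 at 24 months, differed by 5.20 ± 0.58 (adjusted p = 1.61e-06). These genes passed in all 14 refits that left out 1 of the 14 livers; Rtn4 did so in 12 of 14, Cyp4a8 in 10, Mup5 in 5, Gzmk in 4 and Car3, Cyp2c13 and Elovl6 in 3.

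Inmt and Stac3 fell in Brown Norway too. They were at -4.00 and -3.91 there (adjusted p = 0.00849 and 0.0235), beside -3.84 and -3.69 in F344, and the differences of 0.16 ± 1.02 and 0.22 ± 1.18 did not pass (adjusted p = 0.993 and 0.989); their standard errors leave room for differences of either sign. Dhrs7l1, at -2.51 against -3.78, and Prlr, at 0.89 against 3.96, did not pass in Brown Norway (adjusted p = 0.0669 and 0.677), nor did the difference for Prlr (difference 3.07 ± 0.77; adjusted p = 0.0651). Sqle was at 1.51 in Brown Norway, where it did not pass (adjusted p = 0.163), and at 1.31 in F344. The immune lists had medians over the same genes of 1.27 in Brown Norway and 1.02 in F344 for MHC class II and 1.27 and 0.70 for macrophage markers, and 0 genes of either list passed the test of the difference. Gpnmb rose by 2.82 there (adjusted p = 0.00192) and RT1-Da, at 1.42, did not pass (adjusted p = 0.195), beside 1.62 and 1.47 in F344. The Brown Norway livers of 24 months were uneven for these genes, at 1301 ± 1631 (mean and SD) for Gpnmb and 904 ± 1125 for RT1-Da. Fcer1g stood at 806 ± 653 and RT1-DMb at 423 ± 348 there. How far the Brown Norway medians rest on 1 liver was not tested. Cldn7 (difference 1.30 ± 0.27) and Cyp26a1 (2.14 ± 0.24) differed as well, their Brown Norway means lying under 32 at both ages. Cldn7 met the filter only with the F344 livers of 24 months, so its difference is a description. Brown Norway means of Cyp4a8 and Gzmk lay under 32 at both ages too. Signals under 32 were set to it, so the differences of Cyp26a1, Cyp4a8 and Gzmk restate their F344 changes.

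**Figure D5:**
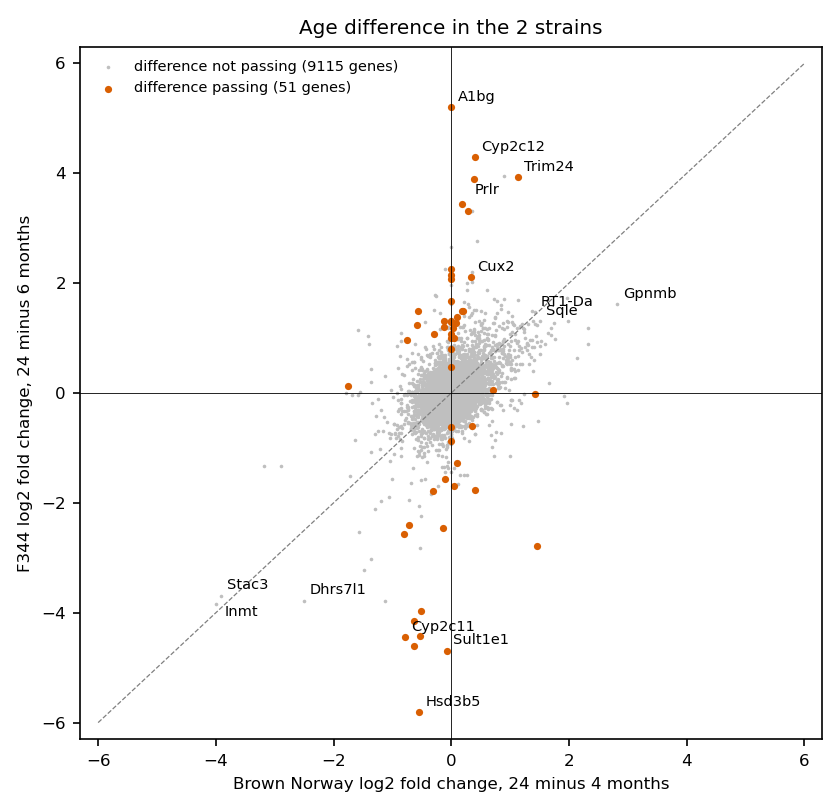
Log2 fold change of each gene with age in F344 (24 minus 6 months, vertical axis) against untreated Brown Norway (24 minus 4 months, horizontal axis); the dashed line marks equal change. Orange points are the 51 genes whose difference passed, and Hsd3b5, Sult1e1, Cyp2c11, Cyp2c12 and A1bg lie near 0 on the horizontal axis while Inmt and Stac3 lie near the line.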

How the data were processed

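Total RNA of each liver was isolated with TriReagent and RNeasy cleanup and labelled with biotin for Affymetrix Rat 230 2.0 arrays, per the labels' protocols. The deposited values are probe-set intensities on a linear scale; the submitters' processing notes name MAS5 and RMA, with no version, role or order given in the sources used here. Of 24946 probe sets, 17584 had 1 gene symbol, 393 several and 6916 none, and 53 were array controls. Signals under 32 were set to 32 and log2-transformed. For each gene the probe set of highest mean log2 signal over the 16 F344 arrays was used, and a gene was tested if it exceeded 32 on at least 4 of them. The 4 F344 age groups were fitted with limma 3.58.1 in R 4.3.3 (12 residual degrees of freedom), and p-values were adjusted by Benjamini-Hochberg over all tested genes, with a threshold of 0.05. The fit was tested on simulated data. The strain difference was a contrast over all 34 arrays in 10 groups. Errors of log2 fold changes are standard errors, and the number of rats, 4 per age, limits the precision.

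Genes named are fixed checks, the 12 largest changes in each direction among passing genes with no overlap between the ages, and from each list at most the 4 tested members with the lowest p; other list members are named to complete a count and were chosen after their values were seen. The lists and members were chosen with earlier results of these data known. Alternatives varied the probe-set rule, the lower limit of 32, the filter, the scaling, the variance model, RNA integrity and the livers included. Promoters are from RefSeq's GRCr8 table and 7752 of the 9206 tested genes matched an entry.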

Additional observations from a re-analysis of the deposited data

Results flagged for a closer look

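Among 145 named genes, 279 groups of 4 livers were checked for a sample far from the other 3, and 20 had one; chance gives about 1 in 20 groups. Single 24-month livers stood high for Cd36 (538 in replicate 2), Cd8a (108 in replicate 1), Cyp26a1 (200 in replicate 2), Dio1 (99.3 in replicate 3), Fmo1 (886 in replicate 3), Lect2 (732 in replicate 3), Nr1d2 (248 in replicate 4) and Prlr (1210 in replicate 4). Single 24-month livers stood low for Igf1 (4192 in replicate 3), Klrd1 (42.5 in replicate 3), Rdh16 (15.5 in replicate 4) and Rtn4 (916 in replicate 1). At 6 months the high values were Gstp1 (163 in replicate 4), Il6r (151 in replicate 2), RT1-DMb (158 in replicate 1), Slc22a25 (60.5 in replicate 2) and Slco1b2 (3819 in replicate 3). The low values at 6 months were RT1-DMa (27.8 in replicate 1), Serpinb9b (23.7 in replicate 1) and Slc22a8 (148 in replicate 3).

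The log2 change with age differed between F344 and untreated Brown Norway livers, by limma's test of the difference, for 26 named genes. Differences below 0 were -5.27 for Hsd3b5, -4.62 for Sult1e1, -4.25 for Cdh17, -3.96 for Obp3, -3.89 for Cyp3a2, -3.65 for Cyp2c11, -3.50 for Cyp2a2, -3.44 for Ust5r, -2.31 for Cyp2c13, -1.77 for Car3, -1.47 for Mup5, -1.37 for Dio1 and -0.95 for As3mt. Differences above 0 were 5.20 for A1bg, 3.89 for Cyp2c12, 3.52 for Serpinb9b, 3.27 for Elovl6, 3.04 for Rtn4, 2.80 for Trim24, 2.26 for Edil3, 2.14 for Cyp26a1, 2.07 for Sult2a2, 1.78 for Cux2, 1.68 for Cyp4a8, 1.30 for Cldn7 and 1.00 for Gzmk. Of these, Rtn4 passed in 12 of the 14 refits that left out 1 liver, Cyp4a8 in 10, Mup5 in 5, Cdh17 and Gzmk in 4, and Car3, Cyp2c13 and Elovl6 in 3. Sult2a2, A1bg, Cux2, Edil3 and Cldn7 met the filter on low signals only with the F344 livers of 24 months. Brown Norway means lay under 32 at 4 and 24 months for Cyp4a8 (7.51 and 14.4), Gzmk (15 and 18.5) and Cyp26a1 (13.7 and 19.2). Signals under 32 were set to it, so the differences of these genes restate their F344 changes.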

How the results depend on the processing

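Against 681 genes (408 rises and 273 falls), array quality weights gave 1153 (667 and 486), omission of the 5 high-ratio arrays 426 (263 and 163), and a 2-fold minimum 206 (136 and 70); a lower limit 4 times as high gave 264 rises. Leaving out 1 liver gave 389 to 640 genes, 246 to 363 rises and 143 to 277 falls, with falls of 174 without 24-month replicate 4. The strain difference, 51 genes, was 111 with toluene-dosed Brown Norway rats, 24 with a lower limit of 8, and 36 to 84 without 1 liver. The cause was not tested. The 129 named passing genes kept direction and call in 2429 comparisons with an alternative and lost the call, in the same direction, in 366; none changed direction. Direction changed in 15 comparisons, all of 6 genes that did not pass: Alb to -0.02, Ghr to 0.07 and Igf1 to 0.01 under quantile scaling, Ghr to 0.24 with the mean of its probe sets, Cyp2c22 to -0.03 with the Gapdh ratio as a covariate and to -0.10 without the high-ratio arrays, Hnf4a to 0.04 without those, and, leaving out 1 liver, Cyp3a9 (-0.24 to 0.21, with 0.01, 0.02 and 0.03 between), Ghr (-0.05 to 0.06, with 0.01 and 0.04) and Igf1 (-0.09 to 0.02). Other scaling moved the median of all genes by -0.02 or -0.01. No paired analysis was possible because the labels give the 6- and 24-month rats no shared replicate number. Signals near 32 limit the folds of dim genes.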

Other observations

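Probe sets with no gene symbol, or several, in the annotation used here held some large changes too. Of 3438 tested, 65 rose and 41 fell at 24 months, smaller shares than the 4.43% and 2.97% of the tested genes above. Probe set 1370425_at read 3949, 3063, 3938 and 3439 in the young livers and 340, 95.5, 492 and 103 in the old, a 17.7-fold fall (-4.15 ± 0.45; limma adjusted p = 0.000153). Probe set 1376944_at was under 32 in every young liver and read 292, 356, 227 and 389 in the old, at least 9.67-fold higher (3.27 ± 0.21; limma adjusted p = 4.51e-07). Probe set 1372318_at rose at least 8.71-fold, to 266, 1074, 107 and 330. These 3 were picked after their values were seen. Whether 1376944_at and 1372318_at met the filter without their 24-month livers was not tested, so their values are descriptions.

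Cdh17, an intestinal and liver cadherin chosen after its values were seen, fell 6.93-fold in F344, from between 1272 and 1674 to 397, 106, 604 and 83.7 (-2.79 ± 0.45; limma adjusted p = 0.00117), and was at 1.46 in untreated Brown Norway rats. The difference between strains (adjusted p = 0.0372) passed in 4 of 14 refits that left out 1 liver, and passed neither with dosed Brown Norway rats (0.15) nor without the high-ratio arrays (0.13). Dio1, the enzyme that activates thyroid hormone, fell 2.42-fold, from between 130 and 171 to between 50.1 and 99.3, and was at 0.10 in Brown Norway. It too was chosen after its values were seen.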
